A study of Mus musculus with 6 samples.

Results

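The CD155 axis is described here by 5 genes, the receptor genes *Tigit*, *Cd226* and *Cd96* and the ligand genes *Pvr* (CD155) and *Nectin2* (CD112). They were chosen by name, and all 5 were found among the 31053 genes counted in 33961 cells of CT26 tumors, a mouse colorectal carcinoma line grown in female Balb/c mice that were 5 to 6 weeks old. CD45+ tumor-infiltrating leukocytes (TILs) were enriched with beads 5 days after treatment and profiled in droplets, where a unique molecular identifier (UMI) lets each captured mRNA of a cell be counted a single time. The sample labels describe 6 tumors, 2 treated with vehicle, 2 with a low dose and 2 with a high dose of a bispecific antibody that joins anti-PD-1 to GITR-L. The high dose is labeled 30 mg/kg, and the low dose is 10 mg/kg in the protocol text but 30 mg/kg in the sample field. The deposited cells carry 4 library names, M1, M2, M5 and M6, which match no sample label, so no library could be assigned to a treatment. Every value below is therefore given over the 4 libraries pooled or per library, always in the order M1, M2, M5, M6, with no test and no comparison between treatments. All groups share the tumor line and the CD45 selection.

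CD155 and CD112 are nectin-family adhesion molecules displayed by many tumor, stromal and myeloid cells. CD226 binds them and sends an activating signal in T cells and natural killer (NK) cells, while TIGIT competes for the same ligands and inhibits. CD96 binds CD155 as well and is best known as a restraint on mouse NK cells, so the response of a lymphocyte depends on which of these receptors it carries.

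*Tigit* lies on chromosome 16 of GRCm38, from 43648867 to 43664146 on the minus strand in the GENCODE M21 annotation. *Cd96* lies on the same chromosome from 46035657 to 46120251, also on the minus strand, with 2.37 Mb between them. The ligand genes *Nectin2* (chromosome 7, 19716644 to 19750483) and *Pvr* (chromosome 7, 19903578 to 19921160) are both on the minus strand with 153 kb between them. The 250 bases upstream of the RefSeq start are shown for 2 receptor genes that were seen mainly in lymphocytes and for 1 ligand gene that was seen mainly in cells of the Stroma label. They are written 5′ to 3′ in the direction of transcription, from the RefSeq promoter table on GRCm38.p6, with capitals marking matches to a searched motif.
*Tigit*, chr16:43664185-43664434, minus strand: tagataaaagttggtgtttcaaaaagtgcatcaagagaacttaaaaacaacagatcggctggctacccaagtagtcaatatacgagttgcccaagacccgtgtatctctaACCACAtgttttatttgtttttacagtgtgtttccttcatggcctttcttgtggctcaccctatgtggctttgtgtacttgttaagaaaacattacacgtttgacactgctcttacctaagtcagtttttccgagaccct
*Cd96*, chr16:46120249-46120498, minus strand: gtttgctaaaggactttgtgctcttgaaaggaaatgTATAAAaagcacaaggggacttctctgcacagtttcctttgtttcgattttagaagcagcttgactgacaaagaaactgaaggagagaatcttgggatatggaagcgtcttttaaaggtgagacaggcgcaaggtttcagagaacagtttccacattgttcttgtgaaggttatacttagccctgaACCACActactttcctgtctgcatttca
*Nectin2*, chr7:19749574-19749823, minus strand: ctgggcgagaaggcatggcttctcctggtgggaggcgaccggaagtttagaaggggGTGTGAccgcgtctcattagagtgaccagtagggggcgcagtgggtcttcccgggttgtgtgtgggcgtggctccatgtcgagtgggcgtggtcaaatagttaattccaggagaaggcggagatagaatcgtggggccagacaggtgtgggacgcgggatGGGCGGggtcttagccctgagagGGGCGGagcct
Both strands were searched for 4 short motifs. The RUNX motif (TGTGGT) was found at 140 bases before the start of *Tigit* (offset -140) and 28 bases before that of *Cd96* (offset -28), each on the opposite strand, so that it reads ACCACA above. It is present in 14.0% of the 32851 promoters in the table at this length. The *Nectin2* promoter had 2 matches to the GC box (GGGCGG), at offsets -34 and -11 (32.7% of promoters hold at least 1), and 1 to the T-box motif (TCACAC) at -194, also read from the opposite strand (12.3% of promoters). *Cd96* also had a match to the TATA box (TATAAA) at -214 (12.4% of promoters), and no matches overlapped. The *Nectin2* sequence held 16 CpG dinucleotides and 62.0% G and C, against 5 and 40.0% for *Tigit*, 3 and 41.2% for *Cd96*, and medians of 6 and 52.4% over all promoters. The *Nectin2* window lies within the longer GENCODE gene and the *Tigit* window within the longer RefSeq gene, so each gene also has an annotated start further upstream. These matches describe the letters of the windows and say nothing of binding.

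The 4 libraries held 7160 to 10294 cells with a median of 11399 to 21801 UMIs per cell, and any pair of libraries shared 9 to 29 cell barcodes. Levels are in CPM (the gene's share of a population's UMIs, scaled to 1000000), with exact 95% Poisson intervals that cover counting error only. Over the whole table *Tigit* had 664 UMIs, *Cd226* 7886, *Cd96* 9815, *Pvr* 52590 and *Nectin2* 14257. The lymphocyte labels (NK cells, ILC, NKT and the T cell labels) held 82.5% of *Tigit* UMIs, 90.4% of *Cd226* UMIs and 92.3% of *Cd96* UMIs. Cells labeled Stroma held 90.2% of *Pvr* UMIs and 94.98% of *Nectin2* UMIs. The receptor transcripts were thus counted mainly in lymphocytes and the ligand transcripts mainly in cells of the Stroma label. The Stroma label also held a large part of all UMIs, with 15687 of the 33961 cells at a median depth of 40692 UMIs. Its shares are therefore not read as enrichment, and levels in CPM are compared below. That label comprised 15687 cells in which *Ptprc*, which encodes CD45, was at 7.47 CPM against 463 to 1240 CPM in the DC, Myeloid, NK, ILC, NKT, T cell EFF and T cell MEM labels, although CD45+ cells had been selected.

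**Figure D1:**
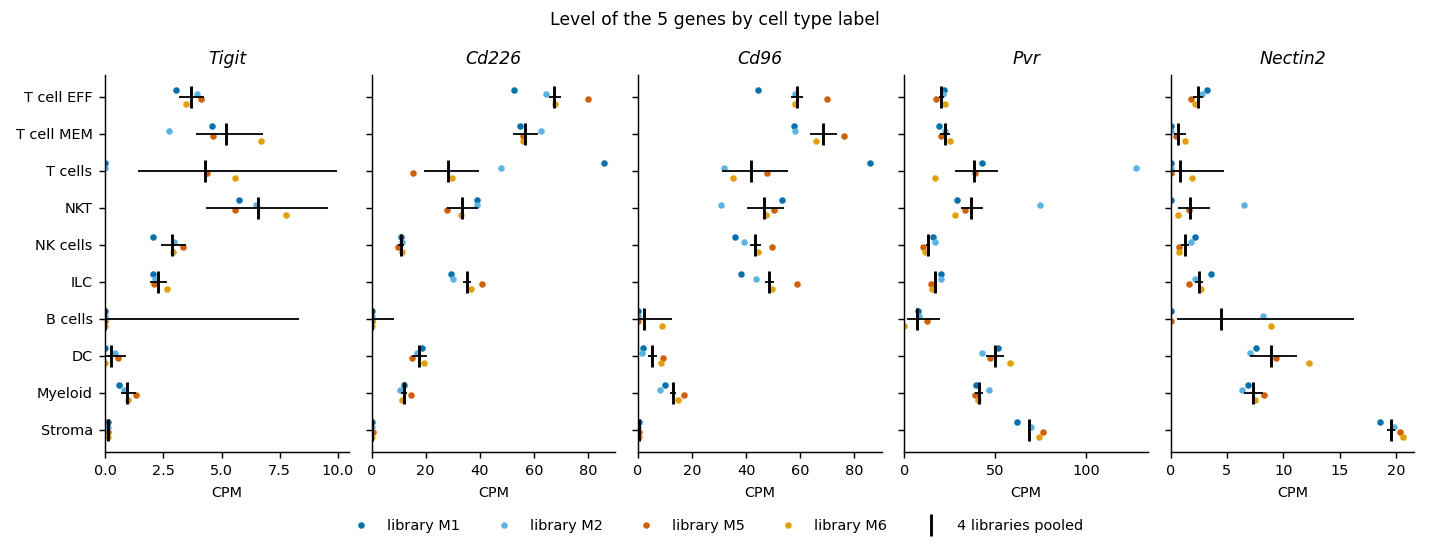
Level of each of the 5 genes in CPM (x axis, from 0, scale differs by gene) for the 10 cell type labels of at least 100 cells (y axis). Colored points are the 4 libraries, the black tick is the pooled value and the black line its 95% Poisson interval. *Tigit*, *Cd226* and *Cd96* are highest in lymphocyte labels, at 6.58, 67.6 and 68.4 CPM, and *Pvr* and *Nectin2* in Stroma, at 68.5 and 19.6 CPM.

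*Tigit*, the inhibitory receptor of the axis, was scarce in every label. Its level was 6.58 CPM in the NKT label (27 UMIs in 781 cells, interval 4.33 to 9.57) and its libraries had 5.77, 6.49, 5.59 and 7.77 CPM. The T cell MEM label followed with 5.19 CPM (4.59, 2.72, 4.62 and 6.70), the small T cells label of 203 cells with 4.28 CPM (5 UMIs), and T cell EFF with 3.69 CPM (3.03, 3.94, 4.13 and 3.47). NKT stood above T cell MEM in all 4 libraries, but the ranges of the libraries overlapped. NK cells had 2.88 CPM (2.06 to 3.33 over the libraries) and ILC 2.27 CPM (2.05 to 2.67). Each label in this order overlapped the next in its library range, down to ILC. The first clear step was between ILC and Myeloid, at 0.947 CPM (0.589 to 1.32), where the ranges did not overlap. No *Tigit* UMI was found in 124 cells labeled B cells, which allows up to 6.78 CPM. No cell of the table had more than 2 *Tigit* UMIs.

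The NKT label, the highest for *Tigit*, was low in NK cell markers and high in markers of T cells and regulatory T cells. No marker list for NKT cells was used, so these sums do not settle what its cells are. The T cell markers *Cd3d*, *Cd3e*, *Cd3g* and *Trac* summed to 3345 CPM in NKT, against 3413 CPM in T cell EFF. NK cell markers (*Ncr1*, *Klrb1c*, *Eomes* and *Prf1*) summed to 189 CPM in NKT, against 2659 CPM in the NK cells label. The regulatory T (Treg) markers *Foxp3*, *Il2ra*, *Ikzf2* and *Ctla4* summed to 2527 CPM in NKT cells and 2553 CPM in the T cells label, against 1071 CPM in T cell MEM and 748 CPM in T cell EFF. Of the 781 cells labeled NKT, 251 (32.1%) had a CD3 chain UMI and a *Foxp3* UMI with no *Cd8a* or *Cd8b1* UMI. Those 251 cells carried 15 of the label's 27 *Tigit* UMIs, at 9.90 CPM, and the other NKT cells had 4.63 CPM. The same pick took 51.2% of the T cells label, with 4.66 CPM of *Tigit* (3 UMIs) against 3.805 CPM in the rest (2 UMIs). In T cell MEM it took 10.9%, with 5.44 CPM (5 UMIs) against 5.17 CPM (49 UMIs). In ILC the pick had 4.56 CPM (16 UMIs) against 2.15 CPM. It had 6.43 CPM (8 UMIs) against 3.62 CPM in T cell EFF and 8.79 CPM (5 UMIs) against 2.80 CPM in NK cells. Cells with CD3 and *Cd4* UMIs but no *Foxp3*, *Cd8a* or *Cd8b1* UMI had 8.84 CPM in NKT (5 UMIs) and 10.97 CPM in T cell MEM (9 UMIs). They had 5.53 CPM in T cell EFF (3 UMIs), 3.61 CPM in the T cells label (1 UMI), 0.567 CPM in ILC (1 UMI) and none in NK cells.

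Because the labels mix T cell types, T cells were also picked by transcripts from all lymphocyte labels. Foxp3+ T cells (772 cells with a UMI of *Foxp3*, the lineage factor of Tregs) had 6.17 CPM of *Tigit* (52 UMIs), and 7.34, 12.97, 4.75 and 6.22 CPM in the libraries. The Cd4+ T cells without *Foxp3* (501 cells) had 4.56 CPM (19 UMIs; 1.42, 8.60, 4.38 and 5.17 by library). Foxp3+ cells were higher within each of the 4 libraries, but the log2 ratio of 0.43 had an interval of -0.35 to 1.28 that includes 0. By a rule of at least a 2-fold higher level in all 4 libraries, 0.432% of 9491 genes at 5 CPM or more were called higher in Foxp3+ cells, and *Tigit* was not. CD8 T cells (4524 cells) were those with CD3 and *Cd8a* or *Cd8b1* UMIs but no *Cd4* UMI, with or without *Foxp3*. Of them, 517 carried the ILC label and 86 the NK cells label. The CD8 T cells had 3.64 CPM of *Tigit*, and 3.11, 3.78, 3.85 and 3.76 CPM in the 4 libraries. Against these, the Foxp3+ cells were 1.70-fold higher (log2 0.76, interval 0.30 to 1.201) and above them in 4 of 4 libraries, short of the 2-fold rule that called 1.46% of 9647 genes higher. NK cell markers summed to 824 CPM in Foxp3+ T cells, 737 CPM in the Cd4+ T cells and 1017 CPM in CD8 T cells. None of these picks was free of these markers, but the sums were not split by gene. The part of NK cell RNA in them was not tested. M1 and M2 contributed only 49 and 60 Foxp3+ T cells, and M5 and M6 contributed 310 and 353. To compare cells at 1 depth, 2000 UMIs were drawn from each. In this draw, 11 of 760 Foxp3+ T cells had a *Tigit* UMI (1.45%, exact binomial interval 0.725 to 2.57), and 40 of 4418 CD8 T cells did (0.905%, 0.648 to 1.23). In Stroma, which should lack the gene, the thinned share was 0.0256% (4 of 15642 cells). With all UMIs, 6.35% of Foxp3+ T cells (median depth 6140 UMIs), 4.91% of CD8 T cells (9759 UMIs) and 0.491% of Stroma cells (40692 UMIs) had one.

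*Cd226*, the activating receptor, had its highest level in the T cell EFF label. It was 67.6 CPM there (3556 UMIs, interval 65.4 to 69.9) and its libraries had 52.5, 64.6, 79.95 and 67.7 CPM. T cell MEM had 56.6 CPM (55.1, 62.5, 56.2 and 55.9), within the range of T cell EFF. A gap without overlap followed to ILC at 35.1 CPM (29.3, 30.1, 40.95 and 36.7), which overlapped NKT at 33.4 CPM. NK cells had only 10.8 CPM (11.1, 11.3, 9.90 and 11.4), in the range of Myeloid cells (10.4 to 14.4 over the libraries). The log2 ratio of NK cells to T cell EFF was -2.64 (interval -2.79 to -2.50), lower in 4 of 4 libraries. By a rule of at least a 2-fold lower level in all 4 libraries, 3.59% of the 9559 genes at 5 CPM or more were called lower in NK cells, *Cd226* among them.

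*Cd226* also differed between cells labeled NK and cells labeled ILC, the abbreviation for innate lymphoid cells. The markers of the ILC label were mixed. NK cell markers summed to 1924 CPM in it, against 2659 CPM in NK cells. The ILC markers *Il7r*, *Gata3* and *Rora* summed to 342 CPM, above NK cells (101 CPM). That sum was below T cell EFF (398 CPM), T cell MEM (909 CPM) and NKT (1243 CPM). ILC is therefore used below only as the name of the label. To set T cells aside, the 3267 NK cells and 2490 ILC without any *Cd3d*, *Cd3e* or *Cd3g* UMI were compared. *Cd226* was 38.1 CPM in these ILC (31.4, 32.2, 42.9 and 42.3) and 11.4 CPM in the NK cells (10.04, 12.4, 11.2 and 11.97). The lowest ILC library was above the highest NK library, and the fold was 3.33 (log2 1.74). Only 0.394% of 9130 genes were called at least 2-fold higher in ILC by the same rule, and *Cd226* was the only member among them. *Tigit* had 2.02 CPM in these ILC and 3.13 CPM in the NK cells, and *Cd96* had 49.7 and 43.1 CPM. The marker sums above cover the whole labels and were not taken for the cells without CD3. Of the NK cell markers, *Ncr1* was 635 and 518 CPM in these ILC with and without a thinned *Tnfrsf18* (GITR) UMI. It was 478 and 437 CPM in the NK cells without CD3.

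The difference in *Cd226* also ran within ILC. *Eomes* encodes the T-box factor that separates NK cells from other innate lymphoid cells. ILC without CD3 that had an *Eomes* UMI after thinning (655 cells) had 23.6 CPM of *Cd226* (17.5, 21.7, 25.7 and 28.1 in the 4 libraries). The 1741 ILC without one had 42.6 CPM (35.7, 36.2, 46.8 and 47.2), and the ranges did not overlap. By a rule of at least a 1.5-fold difference in all 4 libraries, 0.625% of 8962 genes were called lower in the cells with *Eomes*, and *Cd226* was called (log2 -0.85, interval -1.12 to -0.59). In the same split, *Ncr1* differed by log2 -0.06, *Ptprc* by 0.37 and *Lyz2*, a myeloid gene, by -0.95. Among NK cells without CD3 the *Eomes* split gave 10.9 and 11.7 CPM of *Cd226*, a log2 ratio of -0.10 with an interval that includes 0. Split by *Tnfrsf18*, which encodes GITR, ILC had 54.8 CPM of *Cd226* with a UMI and 31.4 CPM without (log2 0.80, interval 0.62 to 0.99). The cells with *Tnfrsf18* had 52.4, 39.9, 62.5 and 59.1 CPM and those without had 22.7, 28.6, 35.7 and 35.5 CPM. The ranges did not overlap, but M2 was under the 1.5-fold limit, so *Cd226* was not among the 0.19% of 8962 genes called higher. *Il7r*, the IL-7 receptor gene of helper-type innate cells, differed by log2 0.65 and *Lyz2* by -0.75 in that split. *Cd96* was 53.9 and 48.2 CPM, and *Tigit* 2.37 and 1.89 CPM.

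*Cd96* was the most evenly spread of the receptors over the lymphocyte labels of at least 100 cells, from 68.4 down to 41.9 CPM. It was 68.4 CPM in T cell MEM (57.8, 57.997, 76.05 and 65.9) and 58.8 CPM in T cell EFF (44.2, 57.96, 69.9 and 58.2). ILC followed with 48.6 CPM, NKT with 46.8 CPM and NK cells with 43.3 CPM (35.9, 39.4, 49.5 and 44.5). Every neighboring pair in this order overlapped in its library range. NK cells were lower than T cell EFF in 4 of 4 libraries with a log2 ratio of -0.44 (interval -0.53 to -0.36), which is under the 2-fold rule. Thus the same pair of labels that differed 6.25-fold in *Cd226* differed 1.36-fold in *Cd96*. Across libraries the M5 value was the highest and M1 the lowest in T cell EFF for both genes. In Foxp3+ T cells *Cd96* was 34.3 CPM (22.0, 6.49, 43.1 and 33.2), against 60.7 CPM in CD8 T cells. Among NK cells without CD3, *Cd96* was 60.9 CPM in 265 cells with a *Lag3* UMI (48.0, 48.2, 57.4 and 83.98) and 41.0 CPM without (35.0, 40.9, 46.9 and 39.4), and 63.4 and 40.6 CPM with and without *Ctla4*. It was higher in 4 of 4 libraries in both splits but was not among the 0.135% and 0.146% of 8902 genes called higher. *Ncr1*, an NK receptor gene, differed by log2 0.37 and 0.43 and *Lyz2* by -1.23 and -1.25.

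Since all 3 receptors bind CD155, the UMIs of *Tigit* and *Cd96* were set against those of *Cd226* in the same cells. A 3′ UMI is counted once per captured transcript whatever the transcript's length, but genes may be captured unequally, so these ratios are read only between populations. T cell EFF had 5.46 *Tigit* UMIs per 100 *Cd226* UMIs (interval 4.70 to 6.31) and its libraries had 5.77, 6.11, 5.17 and 5.13. CD8 T cells had 5.68 and ILC without CD3 had 5.28, in the same range. T cell MEM had 9.17, Cd4+ T cells without *Foxp3* had 13.4, and NKT had 19.7. NK cells without CD3 had 27.3 (25, 31.7, 30.7 and 22.1), and Foxp3+ T cells had 31.9 (41.7, 54.5, 22.2 and 35.1). The lowest library of the NK cells and of the Foxp3+ T cells was above the highest library of T cell EFF, CD8 T cells and ILC without CD3. *Cd226* differed more than *Tigit* between Foxp3+ and CD8 T cells: Foxp3+ T cells had 19.3 CPM of *Cd226* against 64.0 CPM in CD8 T cells (log2 -1.73, interval -1.96 to -1.50), a drop that 1.14% of 9647 genes showed by the 2-fold rule. *Cd96* per 100 *Cd226* UMIs was 87.0 in T cell EFF, 130 in ILC without CD3, 177 in Foxp3+ T cells and 376 in NK cells without CD3 (337 to 428 over the libraries). The Foxp3+ T cells had 125, 27.3, 202 and 187 by library, so in M2 they were below T cell EFF (89.8) and in the other 3 libraries above it. M1 and M2 held only 49 and 60 of these cells, so the M1 and M2 values of both ratios rest on few UMIs.

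**Figure D2:**
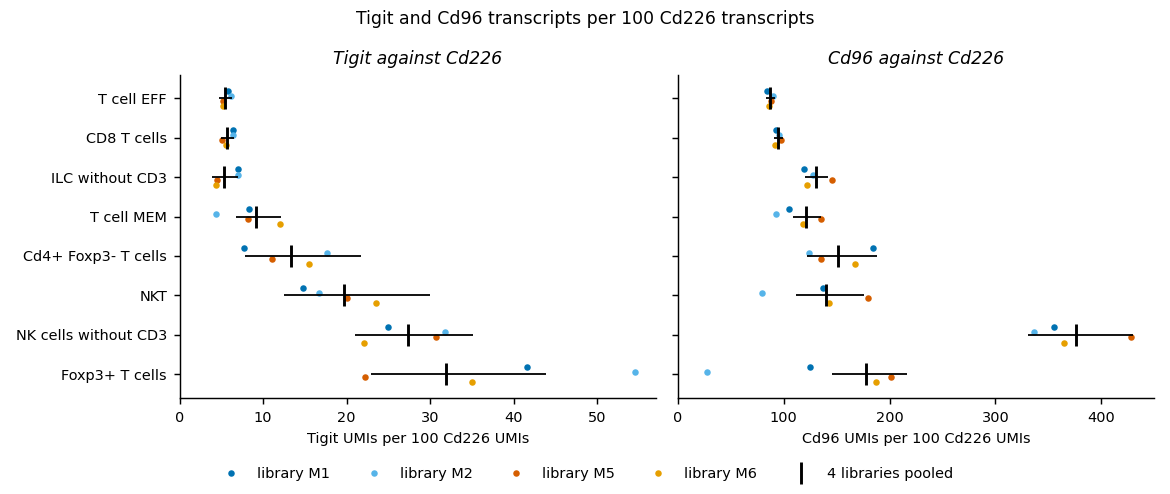
UMIs of *Tigit* (left) and *Cd96* (right) per 100 UMIs of *Cd226* (x axes, from 0) in 8 lymphocyte populations (y axis). Colored points are the 4 libraries, the tick is the pooled value and the line its 95% interval for counting error. NK cells without CD3 and Foxp3+ T cells lie at 27.3 and 31.9 for *Tigit*, and T cell EFF at 5.46.

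Within CD8 T cells the receptors were compared between cells with and without a UMI of the drug targets and of other checkpoint genes. Cells were classed after thinning to 2000 UMIs, and levels were taken from all UMIs. With *Pdcd1* (PD-1), *Cd226* was 75.6 CPM in 2685 cells with a UMI (60, 72.6, 88.8 and 76.2) and 51.4 CPM in 1733 cells without (38.2, 41.5, 62.6 and 58.6). *Cd96* was 71.3 and 49.5 CPM, and *Tigit* was 4.48 and 2.72 CPM. All 3 were higher with *Pdcd1* in 4 of 4 libraries (log2 0.56 for *Cd226*, 0.53 for *Cd96* and 0.72 for *Tigit*). Neither *Cd226* nor *Cd96* was among the 0.376% of 9301 genes that were at least 1.5-fold higher in all 4 libraries, and *Tigit*, under 5 CPM, was not entered. In the same split, the T cell receptor complex genes *Cd3d*, *Cd3e*, *Cd3g* and *Trac* differed by log2 0.63 to 0.85 while *Ncr1* differed by -1.18 and *Lyz2* by -1.11, so *Cd226* and *Cd96* differed by less than these 4 T cell genes did. The part of other cells' RNA in this split was not tested.

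Splits by *Lag3*, another checkpoint gene, *Tnfrsf18* (GITR) and *Ctla4* also had more *Cd226* and *Cd96* in the cells with a UMI. The log2 ratio of *Cd226* was 0.50 with *Lag3*, 0.32 with *Tnfrsf18* and 0.36 with *Ctla4*, and that of *Cd96* was 0.42, 0.35 and 0.23, each higher in 4 of 4 libraries. That of *Tigit* was 0.83 with *Lag3* (higher in 4 of 4 libraries), 0.41 with *Tnfrsf18* and 0.47 with *Ctla4* (each in 3 of 4). By the 1.5-fold rule 0.527%, 0.0323% and 0.043% of 9301 genes were called higher, with neither *Cd226* nor *Cd96* among them. The 4 T cell receptor complex genes gave 0.60 to 0.68, 0.39 to 0.45 and 0.39 to 0.47 in these splits. *Lyz2* differed by -1.34, -0.55 and -0.53 and *Ncr1* by -0.75, -0.38 and -0.47 in the same order, and the part of other cells' RNA was not tested. With *Havcr2* (TIM-3), *Cd226* was 81.2 CPM with a UMI and 60.7 CPM without (log2 0.42, interval 0.31 to 0.53, higher in 4 of 4 libraries), inside the 0.31 to 0.43 of the T cell genes (0.194% of genes were called higher), while *Cd96* was 64.7 and 59.99 CPM (log2 0.11, interval -0.01 to 0.23). *Tigit* was 4.87 and 3.40 CPM in that split (log2 0.52), higher in 2 of 4 libraries, and *Ncr1* differed by -0.81 and *Lyz2* by 0.07. The cells with *Tcf7*, a factor of memory and stem-like T cells, were few (221) and had 3 *Tigit* UMIs (1.19 CPM against 3.73 CPM, lower in 3 of 4 libraries). *Cd96* was 63.1 against 60.6 CPM, higher in M5 (90.2 against 74.1) and lower in the other 3 libraries. In that split *Cd3g* differed by log2 -0.56, *Trac* by -0.38, *Ncr1* by 0.73 and *Lyz2* by 0.33. CD8 T cells with *Eomes* (299 cells) had 50.5 CPM of *Cd226* against 65.2 CPM, lower in 4 of 4 libraries (log2 -0.37; 0.226% of genes were called lower, *Cd226* not among them). Here the T cell genes were lower too, by log2 -0.55 to -0.43, while *Ncr1* was higher by 1.28 and *Lyz2* by 1.05.

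**Figure D3:**
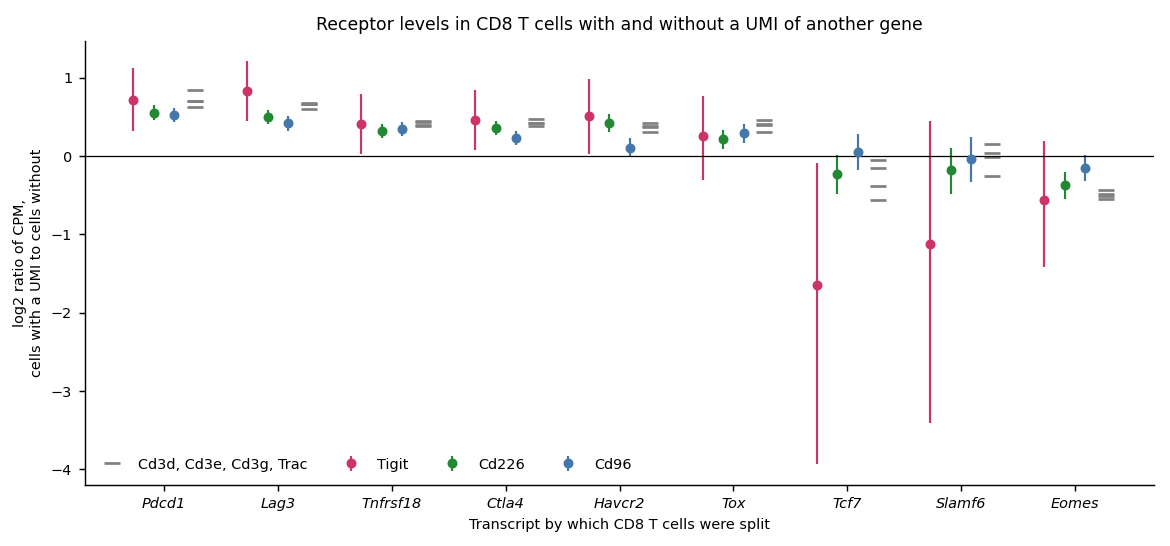
log2 ratio of CPM (y axis) between CD8 T cells with and without a UMI of the gene named on the x axis. Colored points are *Tigit*, *Cd226* and *Cd96* over 4 pooled libraries with 95% intervals for counting error, and gray dashes are *Cd3d*, *Cd3e*, *Cd3g* and *Trac*. *Cd226* and *Cd96* lie below the gray dashes for *Pdcd1* and *Lag3*, and *Tigit* has the widest intervals.

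Whether the receptors sat in the same cells could be read only roughly. After thinning, 7 of 40 CD8 T cells with a *Tigit* UMI also had a *Cd226* UMI (17.5%, interval 7.34 to 32.8), against 616 of 4378 without *Tigit* (14.1%, 13.1 to 15.1). Without M1 the share was 10.7%, below that of the cells without *Tigit*. A difference was not detectable at this depth. *Cd226* and *Cd96* were counted together in 87 of 623 CD8 T cells with *Cd226* (14.0%), and *Cd96* was counted in 11.96% of those without. By level, CD8 T cells with a thinned *Cd96* UMI had 81.8 CPM of *Cd226* against 61.9 CPM (log2 0.40, interval 0.27 to 0.54), higher in 4 of 4 libraries and not among the 0.0323% of genes called 1.5-fold higher. In that split *Cd3d*, *Cd3e*, *Cd3g* and *Trac* differed by log2 0.28 to 0.43, *Ncr1* by -0.37 and *Lyz2* by -0.19, and the part of other cells' RNA was not tested.

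Receptor UMIs outside the lymphocyte labels were read against those of T cell markers in the same cells. In Myeloid cells *Cd226* was 17.7% of its T cell EFF level, *Cd96* 22.0% and *Tigit* 25.7%, beside 10.6 to 17.4% for the 6 T cell markers *Cd3d*, *Cd3e*, *Cd3g*, *Trac*, *Cd8a* and *Cd8b1*. In Stroma *Cd226* was 0.346% and *Cd96* 0.530% of that level, and the 6 markers were at 0.225 to 0.608%, while *Tigit*, with 78 UMIs in 15687 deeply counted cells, was at 3.05%. Dendritic cells (DC) stood out. The 166 DC with an *Xcr1* UMI, the marker of cross-presenting conventional DC, had 28.3 CPM of *Cd226* (102 UMIs, and 36.7, 21.65, 23.9 and 35.9 CPM by library). That was 41.9% of the T cell EFF level, while the 6 T cell markers in the same cells were at 5.14 to 8.64% and *Cd96* at 15.1%. It was 2.36-fold the Myeloid level (log2 1.24, interval 0.91 to 1.55), higher in 4 of 4 libraries but below 2-fold in M5, so it was not among the 3.34% of 9667 genes called higher. Of these 166 cells, 2 had a doublet score over 0.25, and the part of other cells' RNA was not tested. No *Cd226* UMI was found in 110 DC with *Siglech*, a plasmacytoid DC marker, which allows up to 2.49 CPM, and 76 DC with *Ccr7* and *Fscn1*, the markers of migratory DC, had 7 *Cd226* UMIs (5.83 CPM) and none of *Tigit* or *Cd96*, which allows up to 2.498 CPM of each.

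**Figure D4:**
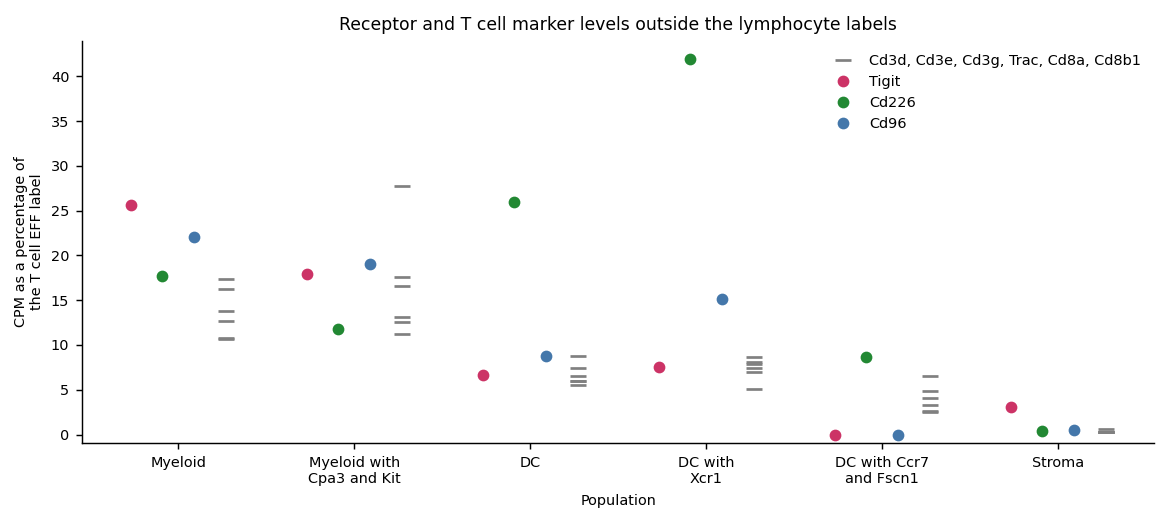
Level of *Tigit*, *Cd226* and *Cd96* (colored points) and of 6 T cell markers (gray dashes) in 6 non-lymphocyte populations (x axis), as a percentage of the level in the T cell EFF label (y axis), with 4 libraries pooled. *Cd226* in DC with *Xcr1* is at 41.9%, above all 6 markers there (5.14 to 8.64%).

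*Pvr*, the shared ligand of the 3 receptors, had its highest label level in Stroma. It was 68.5 CPM there (47425 UMIs) and its libraries had 62.4, 69.7, 76.7 and 74.1 CPM, each above all DC libraries. DC followed at 49.8 CPM (51.8, 43.04, 47.3 and 58.3) and Myeloid at 41.1 CPM (39.7, 46.8, 38.8 and 40.4), with overlapping ranges. The log2 ratio of Stroma to Myeloid was 0.74 (interval 0.66 to 0.81), higher in 4 of 4 libraries but under 2-fold. The T cells label, of only 203 cells, had 38.5 CPM (42.9, 127.9, 39.2 and 16.7). NKT had 36.8 CPM (28.8, 74.6, 33.6 and 27.8), and both overlapped Myeloid, with M2 their highest library. *Pvr* in NKT was 53.7% of its Stroma level, beside 3.12 to 4.18% for the fibroblast markers *Col1a1*, *Col1a2*, *Col3a1* and *Dcn*. T cell MEM and T cell EFF had 22.2 and 20.4 CPM, ILC 17.1 CPM and NK cells 13.0 CPM. In T cell EFF, *Pvr* was 29.7% of its Stroma level, beside 5.75 to 11.5% for these 4 markers. In T cell MEM it was 32.4%, beside 1.54 to 2.26% for the same markers. These 4 markers cannot gauge *Pvr* RNA carried from Stroma. Of the 47425 *Pvr* UMIs of that label, 43274 lay in cells without a *Col3a1* UMI after thinning. The part of other cells' RNA in these lymphocyte values was not tested. At 2000 UMIs per cell, 14.6% of Stroma cells had a *Pvr* UMI, as did 8.91% of DC, 7.97% of Myeloid cells and 3.27% of T cell EFF. With all UMIs the share was 81.5% in Stroma (median depth 40692 UMIs), 31.2% in Myeloid cells (8027 UMIs) and 16.2% in T cell EFF (10049 UMIs).

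*Nectin2*, the other ligand, was more restricted. Stroma had 19.6 CPM (18.6, 19.9, 20.3 and 20.6), DC 8.95 CPM (7.62, 7.035, 9.36 and 12.3) and Myeloid 7.32 CPM (6.83, 6.36, 8.27 and 7.51). The log2 ratio of Stroma to Myeloid was 1.42 (interval 1.25 to 1.595), and *Nectin2* was among the 13.5% of 10274 genes called at least 2-fold higher in Stroma in all 4 libraries, which *Pvr* was not. ILC and T cell EFF had 2.50 and 2.42 CPM, which is 12.8 and 12.3% of the Stroma level. The fibroblast markers were at 9.21 to 14.6% in ILC and 5.75 to 11.5% in T cell EFF. They cannot gauge *Nectin2* RNA carried from Stroma either. Of the 13542 *Nectin2* UMIs of that label, 11643 lay in cells without a *Col3a1* UMI after thinning. T cell MEM had 7 *Nectin2* UMIs (0.673 CPM). The part of other cells' RNA in these lymphocyte values of *Nectin2* was not tested. The ratio of *Pvr* to *Nectin2* UMIs was 3.50 in Stroma (interval 3.44 to 3.57), 5.62 in Myeloid (4.94 to 6.41) and 33 in T cell MEM (15.8 to 82.997).

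The ligands separated further within Stroma. Cells with a *Col3a1* UMI after thinning, a collagen gene of fibroblasts, numbered 1739, and 13903 cells had none. The cells without *Col3a1*, the larger and deeper group (median depth 42598 against 30412 UMIs), held 11643 of the 13542 *Nectin2* UMIs of the label. They also held 43274 of its 47425 *Pvr* UMIs, so these counts are not read as enrichment. No label names tumor cells, and whether Stroma holds CT26 cells was not tested. *Nectin2* was 31.1 CPM with *Col3a1* (29.3, 28.75, 32.9 and 42.6) and 18.4 CPM without (17.4, 18.9, 19.4 and 19.1), and the ranges did not overlap. The log2 ratio was 0.75 (interval 0.68 to 0.82), under the 2-fold rule, by which 3.87% of 9366 genes were called higher with *Col3a1*. *Pvr* was 68.0 CPM with *Col3a1* and 68.6 CPM without, a log2 ratio of -0.01 with an interval of -0.06 to 0.03. The ratio of *Pvr* to *Nectin2* UMIs was thus 2.19 with *Col3a1* (interval 2.07 to 2.31) and 3.72 without (3.64 to 3.79).

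Among Myeloid cells it was *Pvr* that differed. Mast cells, picked by *Cpa3* and *Kit*, were set apart (210 cells, 9.91 CPM of *Pvr*). Myeloid cells with a UMI of *C1qa*, a complement gene of macrophages, had 31.0 CPM of *Pvr* (31.6, 33.8, 27.5 and 31.0) and those without had 49.96 CPM (51.4, 59.4, 47.6 and 46.4), with no overlap. The log2 ratio of cells without to cells with *C1qa* was 0.69 (interval 0.53 to 0.85), under the 2-fold rule, by which 0.879% of 9665 genes were called higher. *Nectin2* was 8.18 CPM with *C1qa* and 7.24 CPM without, with an interval of the log2 ratio that includes 0.

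The highest *Pvr* level of any population described here was in DC with *Ccr7* and *Fscn1*. These 76 cells had 106 CPM (127 UMIs, interval 88.2 to 126) and their libraries had 75.2, 102.7, 143.8 and 110.1 CPM. DC with *Xcr1* had 28.6 CPM (23.1, 28.6, 26.5 and 35.9), and the ranges did not overlap. The fold was 3.70 (log2 1.89), and *Pvr* was among the 3.76% of 9543 genes called at least 2-fold higher in all 4 libraries. The libraries held only 14, 18, 16 and 28 of these cells. DC with *Siglech* had 51.4 CPM of *Pvr* (36.9 to 58.3 over the libraries). *Nectin2* had 11 UMIs in DC with *Ccr7* and *Fscn1* (9.16 CPM, interval 4.57 to 16.4) and 15 in DC with *Xcr1* (4.17 CPM, 2.33 to 6.87). The same migratory DC had *Dcn* at 1.07%, *Col3a1* at 2.12%, *Col1a1* at 9.95% and *Col1a2* at 15.9% of their Stroma levels. *Pvr* was at 154% of its Stroma level, and the part of other cells' RNA was not tested. Here too the fibroblast markers cannot gauge *Pvr* RNA carried from Stroma.

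**Figure D5:**
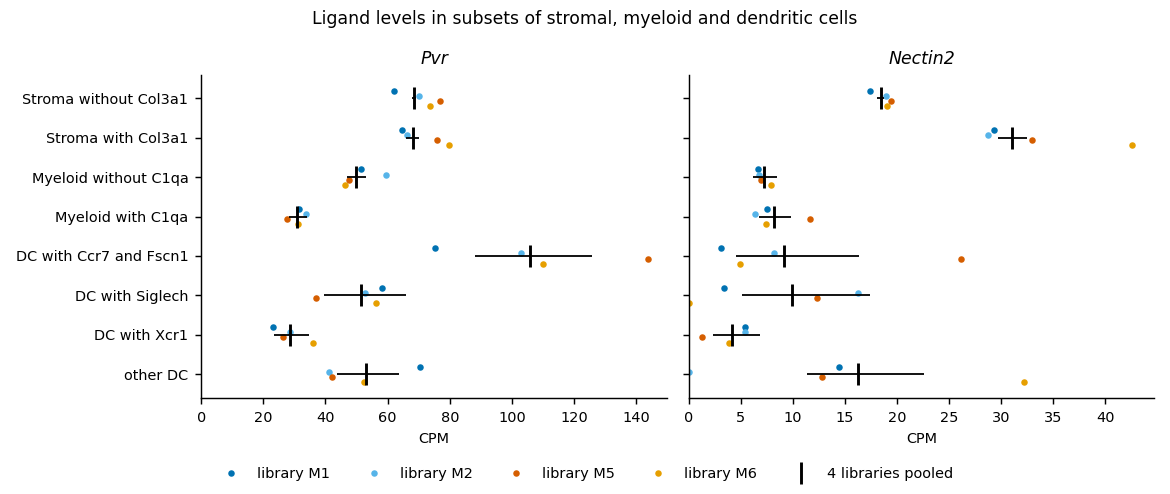
*Pvr* (left) and *Nectin2* (right) in CPM (x axes, from 0) in subsets of the Stroma, Myeloid and DC labels split by the named transcripts (y axis). Colored points are the 4 libraries, the tick is the pooled value and the line its 95% Poisson interval. *Pvr* is 106 CPM in DC with *Ccr7* and *Fscn1* and about equal in both Stroma subsets, where *Nectin2* is 31.1 and 18.4 CPM.

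Of 24 related genes listed by function, all were counted. As background, 6 of the 10 labels of at least 100 cells are lymphocyte labels, and 38% of 23760 genes with a UMI had their highest level in one of them (36.7% of 11519 genes at 5 CPM or more). In the list of other receptors and ligands, 3 of 6 were highest in a lymphocyte label and 3 in another label. *Pvrig*, another receptor for CD112, was highest in NK cells at 15.2 CPM (10.9 to 17.3 over the libraries), where *Cd226* was low. *Crtam*, a receptor on activated T cells, was highest in T cell EFF at 60.9 CPM and its ligand gene *Cadm1* in DC at 173 CPM. *Nectin1* was also highest in DC, at 36.3 CPM, *Nectin4* had 3.68 CPM there, and *Nectin3* was at most 0.458 CPM in the labels of at least 100 cells. In the list of adaptors and signaling molecules, 4 of 9 were highest in a lymphocyte label, among them the kinases *Lck* (350 CPM in T cell MEM) and *Fyn* (179 CPM). *Afdn*, which anchors nectins to actin, was highest in Stroma at 50.1 CPM, and *Inpp5d* and *Ptpn6*, phosphatases that act downstream of inhibitory receptors, were highest in B cells. All 9 checkpoint and T cell factor genes were highest in a lymphocyte label, with *Pdcd1* at 567 CPM and *Lag3* at 392 CPM in T cell EFF and *Tnfrsf18* at 750 CPM in NKT. *Pdcd1* and *Lag3* thus had the same highest label as *Cd226*.

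Likeness was measured as Pearson's r of log2(CPM + 1) over 34 points, each a label in a library with at least 50 cells, among 12871 genes with at least 500 UMIs. The points share cells' depth and library within them and are not independent, so r is a description. The genes most like *Cd226* were *Lag3* (r = 0.95), *Lpxn* (0.94), *Gna15* (0.94), *Adcy7* (0.94) and *Il21r* (0.93). Those most like *Cd96* were *Thy1* (0.99), *Lck* (0.99), *Zap70* (0.98), *Hip1r* (0.98) and *Spn* (0.98), among them the T cell surface marker *Thy1* and kinases of T cell receptor signaling. *Tigit*, with only 664 UMIs, had *Gm42372* (0.96), *Ets1* (0.96), *Kmt2a* (0.96), *Aak1* (0.95) and *Nfatc3* (0.95). The list for *Pvr* was *Ube2l6* (0.89), *Fam104a* (0.89), *Fos* (0.88), *Chst15* (0.87) and *Parp12* (0.86), and that for *Nectin2* included *Htra2* (0.92), *Thoc6* (0.91), *Rras* (0.91) and *Nagk* (0.91). Among the members, *Tigit* and *Cd96* had r = 0.87, *Cd226* and *Cd96* 0.84, *Tigit* and *Cd226* 0.71, and the ligands 0.75. No member was among the 5 genes most like another.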

How the data were processed

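Cell Ranger 3.0.2 on mm10 (GRCm38) was used by the authors to count UMIs. They kept cells above 500 UMIs, named each cell by its best-correlated ImmGen profile, and deposited the UMI counts without normalization, with a library name and a label per cell. No removal of doublets or free RNA is named in the sources used here. UMIs were summed per population and library in Python 3.11.15 with scipy 1.17.1. T cells were cells of lymphocyte labels with a UMI of *Cd3d*, *Cd3e* or *Cd3g*. Thinned shares used hypergeometric draws of 2000 UMIs per cell, without the cells below that depth. So did the splits within CD8 T cells, NK cells, ILC, Stroma and Myeloid cells. The picks of T cells, mast cells, DC subsets and cells without CD3 used all UMIs, so they depend on depth. Median depth was 19872.5 UMIs in DC with *Xcr1*, 11612 in DC with *Ccr7* and *Fscn1* and 8132 in DC with *Siglech*. Exact 95% intervals cover counting error alone, and where no UMI was found up to 3 counts were allowed. Doublets were scored with scrublet in scanpy 1.11.5 at an expected rate of 0.06, and cells scoring over 0.25 (606, 1.78%) stayed in except in 1 alternative. Thinning, intervals and the fold rule were tested on simulated data. Named genes are the 5 members, 24 related genes from fixed lists and the 5 most alike genes per member, of which 1 is not reported here. Members, lists and markers were chosen with earlier results of these data known, and the subsets of ILC, NK cells, DC, Myeloid and Stroma cells were added after the data were seen. The GENCODE M21 model of *Tigit* spans 15280 bases with 1 transcript of 919 bases, against 38989 bases in RefSeq. Whether reads outside the model lowered its count was not tested. Alternatives left out 1 library, doublet-like cells, cells over 10% mitochondrial UMIs or cells with *Lyz2*, took T cells from all labels, took the median of the libraries, changed the depth of thinning, or averaged over cells. The position and sequence of *Cd226*, the *Pvr* promoter and protein sequences are not shown here.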

Additional observations from a re-analysis of the deposited data

How the results depend on the processing

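The log2 ratios and their intervals came from UMIs pooled over the 4 libraries, so they can mix library and population differences. Only the directions by library and the fold rules compared populations within each library. For the treatments, no paired analysis was possible because no library could be tied to a sample or replicate number, and no result comes from a test. With 4 libraries of unknown treatment, treatment effects cannot be told apart from differences between libraries, and *Tigit*, at 664 UMIs, is limited by counting. No log2 ratio changed sign under any alternative run, and in 55 of 66 alternatives the planned results stayed inside the 95% counting interval of the pooled value or, for the label with the highest level of each gene, did not change. With T cells taken from all labels the *Tigit* log2 ratio of Foxp3+ to Cd4+ T cells was 0.89. The mean over cells of each cell's CPM moved the log2 ratio of NK cells to T cell EFF to -2.38 for *Cd226* and -0.80 for *Cd96*, and that of Stroma to Myeloid to 1.00 for *Pvr* and 2.04 for *Nectin2*. Without cells with a *Lyz2* UMI, a setting added after the data were seen, the *Cd226* ratio was -2.81, and without cells with a scrublet score over 0.25 the *Pvr* ratio was 0.82. The cause of these moves was not tested. The thinned share of Foxp3+ T cells with *Tigit* was 2.91% at 4000 UMIs and 6.35% with no thinning, and the share of *Tigit*-positive CD8 T cells with *Cd226* was 6.67% at 1000 UMIs and 56.8% with no thinning, since deeper cells show more UMIs. Leaving out 1 library at a time gave log2 ratios of 0.22 to 0.57 for *Tigit* (Foxp3+ to Cd4+ T cells), -2.75 to -2.45 for *Cd226* (lowest in size without M5), -0.49 to -0.40 for *Cd96*, 0.69 to 0.80 for *Pvr* and 1.36 to 1.47 for *Nectin2*, and shares of 1.14 to 1.98% and 10.7 to 20.6%. The highest label of each gene was the same with any library left out. In M1 alone the T cells label (11 cells) was highest for *Cd226* and *Cd96*, and in M2 alone it was highest for *Pvr* (19 cells). The share of *Tigit*-positive CD8 T cells with *Cd226* was 10.7% without M1, the largest change among the libraries left out, and then below the 14.1% of the cells without *Tigit*. In 32 of 35 alternatives for subset results added after the data were seen, the value stayed inside its 95% counting interval. The mean over cells gave a log2 ratio of 1.51 for *Cd226* in ILC to NK cells without CD3 (interval 1.55 to 1.93). For *Cd226* in DC with *Xcr1* to Myeloid it gave 1.74 (0.91 to 1.55). Without M2 the *Nectin2* ratio of Stroma with to without *Col3a1* was 0.826 (0.681 to 0.822).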
